A study of Mus musculus with 7 samples.

Results

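The genes of 10 plasma proteins of the acute phase response were compared between cholestatic *Rbpj*-/- livers and *Rbpj*+/+ livers. They encode the serum amyloid A proteins (*Saa1*, *Saa2*, *Saa3* and *Saa4*), serum amyloid P component (*Apcs*), the orosomucoids (*Orm1*, *Orm2* and *Orm3*), haptoglobin (*Hp*) and hemopexin (*Hpx*). Members were taken by gene name among the probes that were no controls. Each of the 10 genes had 1 probe on the array, and these are 10 of 24566 tested probes and of 18769 tested genes. All 10 probes were well above background on all 7 arrays, so none of them entered through a filter on dim probes.

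Liver RNA of 7 untreated C57BL/6J mice, each 4 weeks old, was labelled with a single dye and measured on oligonucleotide arrays, with a separate array for every animal. There were 4 *Rbpj*+/+ and 3 *Rbpj*-/- mice, and all 7 had both *Rbpj* alleles floxed. The *Rbpj*-/- mice carried *AlfpCre* and were cholestatic, while the *Rbpj*+/+ mice lacked *AlfpCre* and were not, and the labels give no sex. The authors also reported necrosis with infiltrating immune cells in *Rbpj*-/- liver at this age, so necrosis and genotype cannot be told apart. *AlfpCre* is driven by albumin promoter and alpha-fetoprotein enhancer sequences, which are active in the common precursor of hepatocytes and cholangiocytes, and an effect of Cre itself cannot be told apart from the deletion. The genotypes lay in different rows of 1 slide, so row and genotype cannot be told apart either. Values are normalized log2 intensities, on which 0 is the 75th percentile of an array and a step of 1 is a doubling. A gene was called when limma gave a Benjamini-Hochberg adjusted p below 0.1 over all tested probes. *Rbpj* itself averaged 0.60 ± 0.34 in the controls (SD, n = 4) against -0.54 ± 0.22 in the knockouts (SD, n = 3) and was called lower (limma, adjusted p = 0.0115), though not without a filter on dim probes (adjusted p = 0.108). The sources used here do not place its probe relative to the deleted exons.

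The acute phase response is the change in plasma proteins that follows infection or tissue injury. Interleukin 6 and interleukin 1 reach hepatocytes from macrophages and other cells, and signal through STAT3, NF-kB and the C/EBP factors to the genes of secreted proteins. In mice, *Saa1*, *Saa2* and *Apcs* are the classical strongly inducible genes, *Saa4* is expressed constitutively, *Saa3* is also made by macrophages and adipocytes, and albumin belongs to the proteins that fall. In whole liver RNA, fewer cells of a type and less RNA per cell cannot be told apart.

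The sequences before the gene starts were read to show what the members share apart from their signals. Of the 10 members, 8 had a window of 250 bases upstream of the start in RefSeq (GRCm38.p6), and *Orm1* and *Hp* are named only. The windows of *Saa1* and *Saa2* were 95.2% identical and those of *Orm2* and *Orm3* 87.2% identical, while no other pair exceeded 53.6%. The windows of the most similar pairs and of *Saa3* are given 5′ to 3′ on the strand of the gene, so that near copies can be set beside the values of their genes. Capitals mark a match to the C/EBP letters TTGCNNAA on either strand. The windows lie at chr7:46742981-46743230 (minus strand) for *Saa1*, chr7:46751583-46751832 (plus strand) for *Saa2*, chr7:46715677-46715926 (minus strand) for *Saa3*, chr4:63362199-63362448 (plus strand) for *Orm2* and chr4:63355908-63356157 (plus strand) for *Orm3*.
Saa1: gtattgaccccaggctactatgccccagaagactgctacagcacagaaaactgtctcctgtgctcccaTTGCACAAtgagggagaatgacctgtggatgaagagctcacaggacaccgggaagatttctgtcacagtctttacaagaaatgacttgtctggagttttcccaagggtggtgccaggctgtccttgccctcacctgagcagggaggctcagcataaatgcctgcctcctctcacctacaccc
Saa2: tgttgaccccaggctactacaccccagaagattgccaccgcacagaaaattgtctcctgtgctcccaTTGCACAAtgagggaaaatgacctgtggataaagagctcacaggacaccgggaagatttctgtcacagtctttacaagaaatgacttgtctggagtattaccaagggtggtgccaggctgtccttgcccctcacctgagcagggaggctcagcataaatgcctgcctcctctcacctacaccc
Saa3: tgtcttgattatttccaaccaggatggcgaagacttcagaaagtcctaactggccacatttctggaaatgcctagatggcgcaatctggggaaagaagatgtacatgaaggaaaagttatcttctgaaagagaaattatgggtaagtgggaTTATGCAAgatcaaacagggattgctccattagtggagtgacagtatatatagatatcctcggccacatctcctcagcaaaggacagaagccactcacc
Orm2: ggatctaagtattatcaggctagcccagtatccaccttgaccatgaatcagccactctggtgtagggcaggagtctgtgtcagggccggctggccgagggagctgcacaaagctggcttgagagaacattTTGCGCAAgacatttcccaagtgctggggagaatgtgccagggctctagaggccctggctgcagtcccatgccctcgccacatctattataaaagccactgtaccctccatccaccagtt
Orm3: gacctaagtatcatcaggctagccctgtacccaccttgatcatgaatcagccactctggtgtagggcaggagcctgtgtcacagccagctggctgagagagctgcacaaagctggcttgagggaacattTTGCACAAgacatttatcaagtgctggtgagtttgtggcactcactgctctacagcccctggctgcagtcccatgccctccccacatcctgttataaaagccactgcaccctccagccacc

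The C/EBP letters were present in 7 of the 8 windows, against 9.56% of 32851 RefSeq windows of the same length. The first base of the match lay at -182 in *Saa1*, -183 in *Saa2*, -99 in *Saa3*, -120 in *Orm2*, -121 in *Orm3* and -200 in *Hpx*. *Saa4* had a match at -245 and another at -52, and *Apcs* had none. The STAT letters TTCNNNGAA were found in 1 window, at -244 of *Apcs* (7.02% of all windows), and the letters CTGGGAA of the IL-6 response element in the same gene at -129 and -52 (9.1% of all windows). None of the matches overlapped another motif. The NF-kB motif was found in none of the 8 windows (4.11% of all windows). Both strands were searched, the motifs were chosen with results of these data known, and a match is a description of letters only. Windows with nearly identical sequence are not independent of each other. Whether the letters bear on the levels of their genes was not tested.

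**Figure D1:**
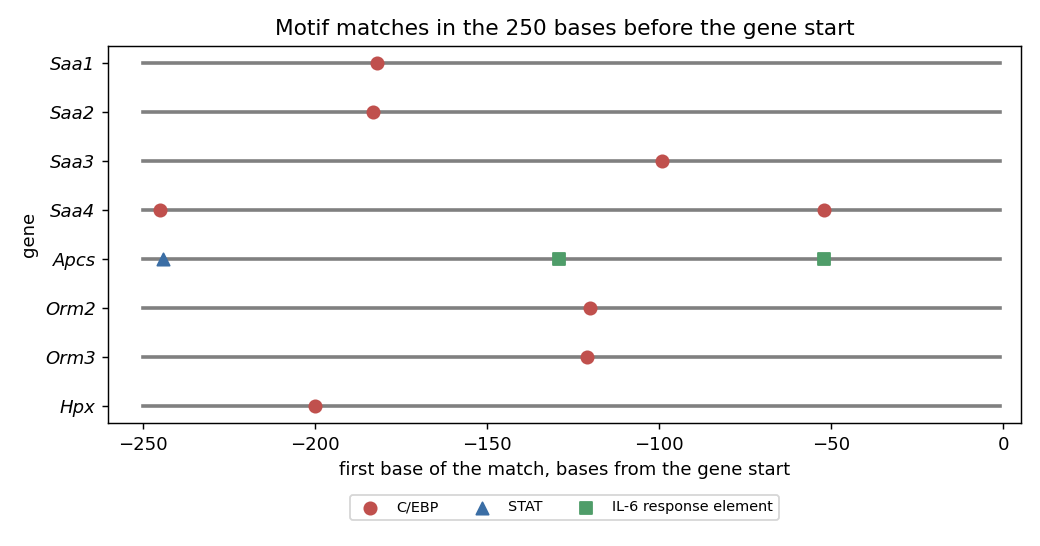
Motif matches in the 250 bases upstream of the start of 8 acute phase genes. The horizontal axis gives the first base of a match in bases from the gene start, each line is the window of 1 gene, and the symbols stand for the C/EBP, STAT and IL-6 response element letters. Windows of 7 genes hold the C/EBP letters and *Apcs* holds the STAT and IL-6 response element letters.

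Between the genotypes, 4 of the 10 genes were called higher in *Rbpj*-/- liver (*Saa1*, *Orm1*, *Orm2* and *Orm3*), 1 was called lower (*Hp*), and 5 did not pass (*Saa2*, *Saa3*, *Saa4*, *Apcs* and *Hpx*). Of all tested genes, 14.6% were called higher and 19.5% lower. At an unadjusted p below 0.05, 5 members were higher and 1 was lower, against 16.4% and 22.5% of the 18769 tested genes. The members had a median log2 fold change of 1.45, against -0.13 over all tested genes. The 3 orosomucoid genes did not overlap between the genotypes in the higher direction (15.4% of all tested genes) and *Hp* did not overlap in the lower direction (21.1%), while the other 6 overlapped. The call of *Hp* depended on the scaling between arrays, and quantile normalization gave a log2 fold change of 0.03 for it. With quantile normalization 5 members were called higher and 0 lower (16.6% and 15.2% of all genes), and with normexp background correction 6 higher and 0 lower (18.1% and 23.2%).

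**Figure D2:**
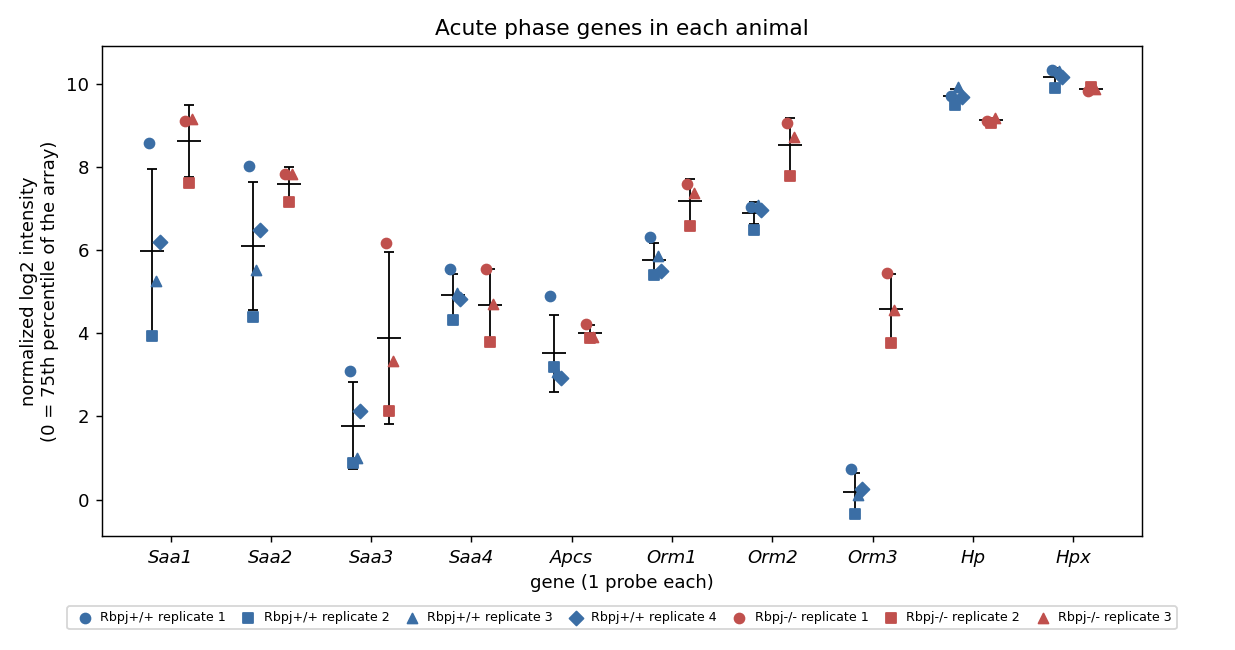
Normalized log2 intensity of the 10 acute phase genes in each animal. The vertical axis has 0 at the 75th percentile of the array, symbols are single animals (blue *Rbpj*+/+, red *Rbpj*-/-), horizontal lines are means and bars are SD. *Rbpj*-/- animals lie above all *Rbpj*+/+ animals for *Orm1*, *Orm2* and *Orm3*, and *Rbpj*+/+ replicate 1 lies highest of its group for *Saa1*, *Saa2*, *Saa3*, *Saa4*, *Apcs*, *Orm1*, *Orm3* and *Hpx*. The lower level of *Hp* in *Rbpj*-/- animals on this scale was 0.03 in the other direction after quantile normalization.

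The orosomucoids, or alpha-1-acid glycoproteins, are secreted lipocalins that bind basic and neutral lipophilic compounds. They were the members whose genotypes did not overlap in the higher direction. *Orm3* was 0.73, -0.34, 0.12 and 0.25 in the *Rbpj*+/+ animals (replicates 1 to 4) and 5.45, 3.77 and 4.57 in the *Rbpj*-/- animals (replicates 1 to 3). Before scaling, these were intensities of 170, 67.5, 62.5 and 88.9 against 6223, 1774 and 2807. Every *Rbpj*-/- animal lay far above every *Rbpj*+/+ animal. *Orm3* rose from 0.19 ± 0.44 (SD, n = 4) to 4.60 ± 0.84 (SD, n = 3), a log2 fold change of 4.41 (SE 0.40, 21.2-fold, limma adjusted p = 0.000446). The exact two-sided permutation test, which reassigns the 7 animals in all 35 ways, gave p = 0.0286, the smallest it allows. Over 19 alternative settings the log2 fold change of *Orm3* ranged from 3.81 to 4.82, with adjusted p between 4.06e-05 and 0.0168.

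*Orm1* was 6.31, 5.41, 5.87 and 5.51 in *Rbpj*+/+ and 7.59, 6.59 and 7.38 in *Rbpj*-/- liver. The lowest *Rbpj*-/- animal, replicate 2, lay just above the highest *Rbpj*+/+ animal, replicate 1. *Orm1* rose by 1.41 on the log2 scale (SE 0.31, limma adjusted p = 0.0137, exact permutation p = 0.0286). The call ended only without a filter on dim probes (adjusted p = 0.116), and the range over the alternatives was 1.09 to 1.71. *Orm2* was 7.03, 6.50, 7.08 and 6.98 in *Rbpj*+/+ and 9.06, 7.80 and 8.73 in *Rbpj*-/- liver. The *Rbpj*+/+ animals lay within a narrow band and replicate 2 was again the lowest *Rbpj*-/- animal. *Orm2* rose by 1.64 on the log2 scale (SE 0.31, limma adjusted p = 0.00840, exact permutation p = 0.0286), and it passed under all 19 alternatives, with values of 1.24 to 2.01.

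The 3 orosomucoid genes were read by different stretches of coding sequence. Their probes are given as designed, to show that each gene had a probe of its own.
Orm1 probe: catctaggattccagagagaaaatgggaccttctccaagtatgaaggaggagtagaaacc
Orm2 probe: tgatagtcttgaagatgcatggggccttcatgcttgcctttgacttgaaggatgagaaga
Orm3 probe: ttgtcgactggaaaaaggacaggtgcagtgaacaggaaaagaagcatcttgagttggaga
The *Orm2* probe lies at chr4:63024979-63025038 (plus strand, mm9 as given by the array design), and no position is given here for the other two. No other probe of the array shared a run of 20 bases with any probe of the 10 members. Binding of a paralog's RNA with mismatches was not tested, so the share of each gene within this family is uncertain. *Orm3* changed by 2.99 more than *Orm1* within the same arrays on the log2 scale (exact permutation p = 0.0286, adjusted over 6 pairs 0.114). This did not pass the threshold of 0.1 over the 6 pairs, and it passed after quantile normalization (2.87, adjusted permutation p = 0.0857). *Orm2* changed by 0.22 more than *Orm1* (exact permutation p = 0.286, adjusted 0.343), a difference within the spread between animals.

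*Saa1* encodes the major serum amyloid A of acute phase plasma, an apolipoprotein of high-density lipoprotein. Its values were 8.58, 3.94, 5.26 and 6.19 in *Rbpj*+/+ and 9.10, 7.63 and 9.15 in *Rbpj*-/- liver. The corresponding intensities were 39157, 1313, 2199 and 5450 against 78302, 25624 and 67068. *Rbpj*+/+ replicate 1 lay among the *Rbpj*-/- animals, and the other 3 *Rbpj*+/+ animals lay below all of them. *Saa1* averaged 5.99 ± 1.95 in *Rbpj*+/+ liver (SD, n = 4) against 8.63 ± 0.87 in *Rbpj*-/- liver (SD, n = 3) and was called higher, with a log2 fold change of 2.64 (SE 0.94, limma adjusted p = 0.0724). The exact permutation test gave p = 0.114. Without *Rbpj*+/+ replicate 1 the log2 fold change was 3.50 (limma adjusted p = 0.00996), and leaving out any one of the other 6 animals ended the call, with values of 1.95 to 3.14. Without the 2 arrays with brighter dim probes (*Rbpj*+/+ replicate 2 and *Rbpj*-/- replicate 1) it was 1.71 (adjusted p = 0.262).

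*Saa2* encodes the second acute phase serum amyloid A, and its promoter window is the near copy of that of *Saa1* given above. It was 8.02, 4.39, 5.53 and 6.50 in *Rbpj*+/+ and 7.84, 7.15 and 7.82 in *Rbpj*-/- liver. The order of the *Rbpj*+/+ animals was that of *Saa1*, and also that of *Saa3* and *Orm3*, and replicate 1 here exceeded every *Rbpj*-/- animal. The log2 fold change was 1.50 (SE 0.72, limma adjusted p = 0.159) and did not pass. It passed with normexp background correction (1.82, adjusted p = 0.0721) and without *Rbpj*+/+ replicate 1 (2.13, adjusted p = 0.0241). Within arrays, *Saa2* minus *Saa1* differed between the genotypes by -1.14 on the log2 scale, which did not pass over the 6 pairs (exact permutation p = 0.0857, adjusted 0.129). Cross-reading between these close paralogs was not tested.

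*Saa3* is expressed in macrophages and other cells outside the hepatocyte as well as in stimulated hepatocytes. It was 3.095, 0.89, 0.998 and 2.12 in *Rbpj*+/+ and 6.17, 2.14 and 3.33 in *Rbpj*-/- liver. *Rbpj*-/- replicate 1 stood above all other animals, and the remaining *Rbpj*-/- animals overlapped the *Rbpj*+/+ range or lay just above it. The log2 fold change was 2.10 (SE 0.90, limma adjusted p = 0.119, exact permutation p = 0.114) and did not pass. Without *Rbpj*-/- replicate 1 it was 0.96 (adjusted p = 0.342), and without *Rbpj*-/- replicate 2 it was 2.97 and passed (adjusted p = 0.0662). It also passed without *Rbpj*+/+ replicate 1 (2.54, adjusted p = 0.0864), with normexp correction (2.07, adjusted p = 0.0751), and at 2.10 with detection required on all 7 arrays (adjusted p = 0.0810) or limma-trend (adjusted p = 0.0791). Without both arrays with brighter dim probes it was 0.66 (adjusted p = 0.497). *Saa3* minus *Saa1* differed by -0.53 between the genotypes (exact permutation p = 0.486 before and after adjustment).

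*Saa4* encodes the constitutive serum amyloid A, and it showed no difference beyond the spread between animals. Its values were 5.56, 4.33, 4.97 and 4.82 in *Rbpj*+/+ and 5.55, 3.80 and 4.70 in *Rbpj*-/- liver. The groups overlapped, with the lowest value in *Rbpj*-/- replicate 2. The log2 fold change was -0.24 (SE 0.42, limma adjusted p = 0.710), and normexp correction gave 0.06. *Saa4* minus *Saa1* differed between the genotypes by -2.87 (exact permutation p = 0.0571, adjusted over the 6 pairs 0.114).

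*Apcs* encodes a pentraxin that binds amyloid and nuclear debris and is a main acute phase reactant of the mouse. Its values were 4.91, 3.19, 3.08 and 2.92 in *Rbpj*+/+ and 4.22, 3.89 and 3.91 in *Rbpj*-/- liver. *Rbpj*+/+ replicate 1 had the highest level of all animals, and the 3 other *Rbpj*+/+ animals lay below every *Rbpj*-/- animal. The log2 fold change was 0.48 (SE 0.45, limma adjusted p = 0.455) and did not pass. Without *Rbpj*+/+ replicate 1 it was 0.95 and was called (adjusted p = 0.0203).

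*Rbpj*+/+ replicate 1 was the highest of the 4 *Rbpj*+/+ animals for 8 of the 10 genes, all but *Orm2* and *Hp*. Over 18747 tested genes with a value on all 4 arrays, this animal was highest for 27.9%. By intensity without scaling it was highest for 10 of 10 members, on the *Rbpj*+/+ array with the highest 75th percentile (103, against 57.5 to 85.5). Without it 7 of the 10 genes were called higher (*Saa1*, *Saa2*, *Saa3*, *Apcs*, *Orm1*, *Orm2* and *Orm3*), against 14.2% of all genes tested in that fit, and *Hp* alone was called lower, against 16.6%. Leaving out the highest control raises the fold change of those 8 genes by construction, so this count is no support for a difference. Leaving out any other single animal gave no call of *Saa2* or *Apcs*. The order of the *Rbpj*+/+ animals was the same for *Saa1*, *Saa2*, *Saa3* and *Orm3*, with replicate 1 highest, then replicates 4 and 3, and replicate 2 lowest.

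**Figure D3:**
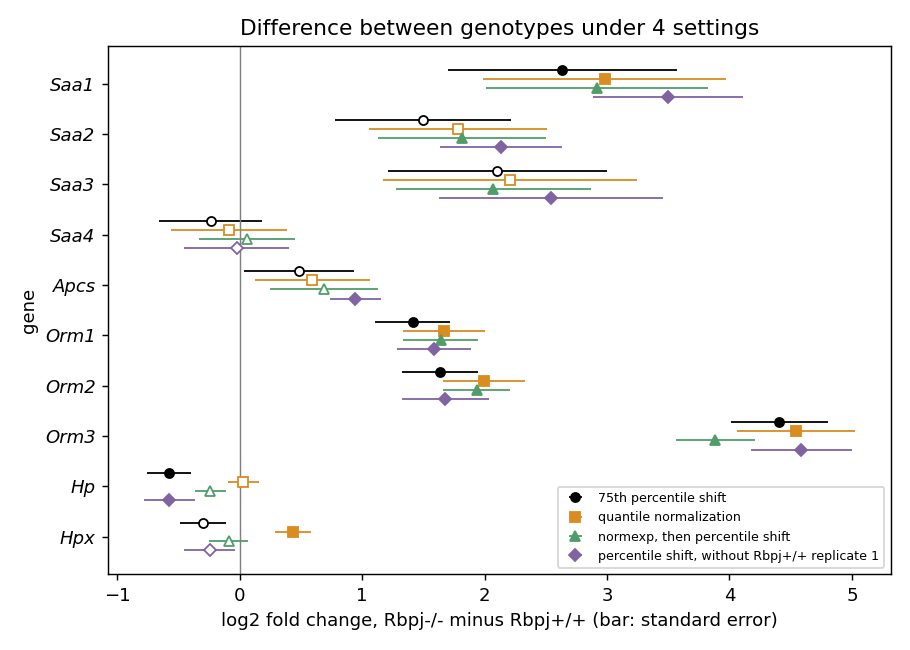
Log2 fold change (*Rbpj*-/- minus *Rbpj*+/+) of the 10 genes under 4 settings, with bars for the standard error and filled symbols for genes called at an adjusted p below 0.1. *Orm1*, *Orm2* and *Orm3* are called under all settings shown, *Saa2*, *Saa3* and *Apcs* are called when *Rbpj*+/+ replicate 1 is left out, and *Hp* and *Hpx* move from below 0 to 0.03 and 0.43 with quantile normalization. *Rbpj*+/+ replicate 1 is the highest control for *Saa2*, *Saa3* and *Apcs*, so leaving it out raises their fold changes by construction.

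Haptoglobin captures free haemoglobin and hemopexin captures free haem, and both proteins are abundant in plasma at rest and rise in inflammation. *Hp* was 9.72, 9.49, 9.92 and 9.68 in *Rbpj*+/+ and 9.12, 9.07 and 9.19 in *Rbpj*-/- liver. All *Rbpj*-/- animals lay below all *Rbpj*+/+ animals on this scale. *Hp* was called lower after the percentile shift (log2 fold change -0.58, SE 0.18, limma adjusted p = 0.0502, exact permutation p = 0.0286). Quantile normalization gave 0.03 and the series matrix, whose fold changes lay close to those of quantile normalization, gave 0.05, and neither passed. Normexp correction gave -0.24 (adjusted p = 0.171), and the call was lost without *Rbpj*+/+ replicate 3 (-0.50, adjusted p = 0.130) or 4 (-0.58, adjusted p = 0.106) and without *Rbpj*-/- replicate 1 (-0.57, adjusted p = 0.122) or 2 (-0.55, adjusted p = 0.153). Before any scaling the geometric mean intensity of *Hp* was 65239.9 in *Rbpj*+/+ and 72403 in *Rbpj*-/- liver.

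*Hpx* was 10.34, 9.89, 10.31 and 10.17 in *Rbpj*+/+ and 9.83, 9.94 and 9.88 in *Rbpj*-/- liver. The groups overlapped through *Rbpj*+/+ replicate 2. The log2 fold change was -0.30 after the percentile shift (SE 0.19, limma adjusted p = 0.274), while quantile normalization gave 0.43 (adjusted p = 0.0770) and the series matrix 0.46 (adjusted p = 0.0817), both called higher. The geometric mean intensity before scaling was 90749.5 in *Rbpj*+/+ and 122335 in *Rbpj*-/- liver. *Hpx* minus *Hp*, which does not depend on a shift of the whole array, was 0.28 higher in *Rbpj*-/- liver (exact permutation p = 0.0571, adjusted over the 6 pairs 0.114) and 0.40 higher after quantile normalization (adjusted 0.0857). The scaling also moved the balance of all calls. Of the genes called, 42.8% were higher after the percentile shift, 52.3% after quantile normalization and 52.6% with the series matrix.

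The other genes of the response were counted from lists of inducers, receptors, signal transducers, feedback inhibitors, further acute phase proteins and clearance genes. Over all tested genes, 14.6% were called higher and 19.5% lower, or 16.6% and 15.2% after quantile normalization. Of 10 listed inducing cytokines 5 were tested, and 3 of these passed the filter on dim probes through *Rbpj*-/- liver alone. With detection required on all 7 arrays 2 were tested, of which 1, *Il1b*, was called higher. *Il1b* was -2.43, -1.52, -2.53 and -1.84 in *Rbpj*+/+ and 0.13, 0.43 and -0.61 in *Rbpj*-/- liver, with no overlap, and rose by 2.06 on the log2 scale (SE 0.33, limma adjusted p = 0.00425), or by 0.80 with normexp correction (adjusted p = 0.0116). *Il6* was detected above background in 1 of 4 control animals and in all 3 *Rbpj*-/- animals, so it passed the filter through *Rbpj*-/- liver alone. Its log2 fold change was 1.95 (SE 0.46) after the percentile shift, where it was called, and -0.02 after normexp correction. These values are a description and not a test. *Il6* did not pass without a filter on dim probes (limma adjusted p = 0.137). *Il1a* and *Clcf1*, named after their values were seen, were well above background on no *Rbpj*+/+ array and so passed the filter through *Rbpj*-/- liver alone. They were at least 2.31-fold and at least 2.08-fold higher, which is a description and not a test. Without a filter on dim probes, and also with normexp correction, *Il1b* was the only listed cytokine called higher. The listed cytokines *Tnf*, *Osm*, *Lif*, *Il11* and *Il22* did not pass the filter on dim probes.

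Among 12 receptor genes, 6 were called higher and 3 lower, or 6 and 3 of the 11 detected on all 7 arrays. Of all tested genes, 14.6% were called higher and 19.5% lower. The same shares stand beside the counts that follow. *Il1r2*, the decoy receptor for interleukin 1, was well above background on no *Rbpj*+/+ array and so passed the filter through *Rbpj*-/- liver alone. It was at least 5.90-fold higher there, which is a description and not a test. With normexp correction it was not called (log2 fold change 0.28, limma adjusted p = 0.291). *Lifr*, the receptor of leukaemia inhibitory factor, fell by 2.82 on the log2 scale (SE 0.33, limma adjusted p = 0.00128), and the mean over all its tested probes fell by 1.20 (adjusted p = 0.0121). Among 16 transducers and transcription factors, 6 were higher and 1 was lower, or 4 and 1 of the 14 detected on all 7 arrays. *Cebpd*, whose product binds the C/EBP letters shown above, was 2.16, 2.24, 2.17 and 2.51 in *Rbpj*+/+ and 5.23, 5.65 and 3.45 in *Rbpj*-/- liver. It rose by 2.51 (SE 0.46, limma adjusted p = 0.00719), with *Rbpj*-/- replicate 3 the lowest of its group. *Cebpb* (0.47, adjusted p = 0.130) and *Stat3* (0.15, adjusted p = 0.623) did not pass, but both were called higher with normexp correction (0.68 and 0.40, adjusted p = 0.0405 and 0.0768). *Fos* was detected on 1 of 4 *Rbpj*+/+ arrays and so passed the filter through *Rbpj*-/- liver alone. Its log2 fold change of 3.65, or 0.71 with normexp correction, is a description and not a test. Among 10 feedback inhibitors, 3 were higher and 1 lower (6 higher and 1 lower after quantile normalization). *Socs3*, the inhibitor of interleukin 6 signalling, rose by 2.54 (SE 0.59, limma adjusted p = 0.0173), *Tnfaip3*, the inhibitor of NF-kB signalling, rose by 3.67 (SE 0.55, adjusted p = 0.00335), and *Socs2*, an inhibitor of growth hormone signalling, fell by 3.11 (SE 0.39, adjusted p = 0.00171). *Socs3* was 2.57, 2.49, 1.72 and 1.44 in *Rbpj*+/+ and 5.20, 5.59 and 2.98 in *Rbpj*-/- liver. Replicate 3 was the lowest *Rbpj*-/- animal in *Socs3* too, and replicate 2 was the lowest in the 3 orosomucoid genes. Whether *Cebpd* or *Socs3* bears on the orosomucoid genes was not tested, and the ranks of 3 animals cannot show it. Without a filter on dim probes the call of *Socs3* ended (adjusted p = 0.130).

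The 28 other positive acute phase genes did not move one way. Of these, 8 were called higher and 9 lower (11 and 3 after quantile normalization), with a median log2 fold change of -0.18 that became 0.09 after quantile normalization. The shares over all tested genes were 14.6% and 19.5%, or 16.6% and 15.2% after quantile normalization. *Lcn2*, the siderophore-binding lipocalin 2, was 5.80, 1.79, 2.28 and 5.26 in *Rbpj*+/+ and 9.67, 8.57 and 8.94 in *Rbpj*-/- liver. Its *Rbpj*+/+ animals spread widely, as for *Saa1*, with replicates 1 and 4 above replicates 2 and 3. *Lcn2* rose by 5.28 (SE 0.94, limma adjusted p = 0.00645). *Serpina3n*, a protease inhibitor, rose by 1.95 (SE 0.38, adjusted p = 0.00875). *Crp*, a minor reactant in mice, had a log2 fold change of -0.21 (adjusted p = 0.670). *Fgb*, the fibrinogen beta chain, was called lower after the percentile shift (-0.69, adjusted p = 0.0345) and was 0.08 after quantile normalization, the same dependence as for *Hp*.

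Of 13 negative acute phase genes, 1 was called higher and 10 lower after the percentile shift, and 2 were higher and 2 lower after quantile normalization. Among all tested genes the shares were 14.6% and 19.5% after the percentile shift, and 16.6% and 15.2% after quantile normalization. *Alb* was called lower after the percentile shift (-0.78, SE 0.18, limma adjusted p = 0.0167) and was -0.10 after quantile normalization (adjusted p = 0.593). *Igf1*, the growth hormone dependent growth factor, fell by 2.65 (SE 0.21, adjusted p = 0.000268), and *Serpina7*, thyroxine-binding globulin, rose by 2.90 (SE 0.47, adjusted p = 0.00429). Of 9 genes for haemoglobin and haem clearance, the function that *Hp* and *Hpx* serve, 1 was higher and 2 were lower, near the shares over all tested genes. *Hmox1*, which degrades haem, was 2.94, 2.67, 2.29 and 2.63 in *Rbpj*+/+ and 3.83, 4.36 and 3.88 in *Rbpj*-/- liver and rose by 1.39 (SE 0.23, adjusted p = 0.00455), with 0.54 for the mean over all its tested probes (adjusted p = 0.0656). *Blvrb*, a biliverdin reductase, was called lower (-0.77, adjusted p = 0.0409), but not without *Rbpj*+/+ replicate 4 (-0.70), *Rbpj*-/- replicate 1 (-0.62) or *Rbpj*-/- replicate 3 (-0.71). *Cd163*, the macrophage receptor of haptoglobin-haemoglobin complexes, was detected on 1 of 4 *Rbpj*+/+ arrays, so it met the filter through *Rbpj*-/- liver alone. *Cd163* did not pass (1.03, limma adjusted p = 0.101), but lay close to the threshold. It passed without *Rbpj*+/+ replicate 3 (1.30, adjusted p = 0.0628), with array weights (1.21, adjusted p = 0.0981) and as the mean over its tested probes (1.03, adjusted p = 0.0993), was 0.65 without *Rbpj*+/+ replicate 4 (adjusted p = 0.147) and turned to -0.22 with normexp correction (adjusted p = 0.243). Of 7 tested genes for receptors of serum amyloid A, 6 were called higher and 0 lower. *Cd36*, a scavenger receptor, rose by 3.40 (SE 0.19, adjusted p = 6.03e-05), and *Tlr2*, a pattern recognition receptor, rose by 1.96 (SE 0.29, adjusted p = 0.00310), or by 1.25 with normexp correction (adjusted p = 0.00268).

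**Figure D4:**
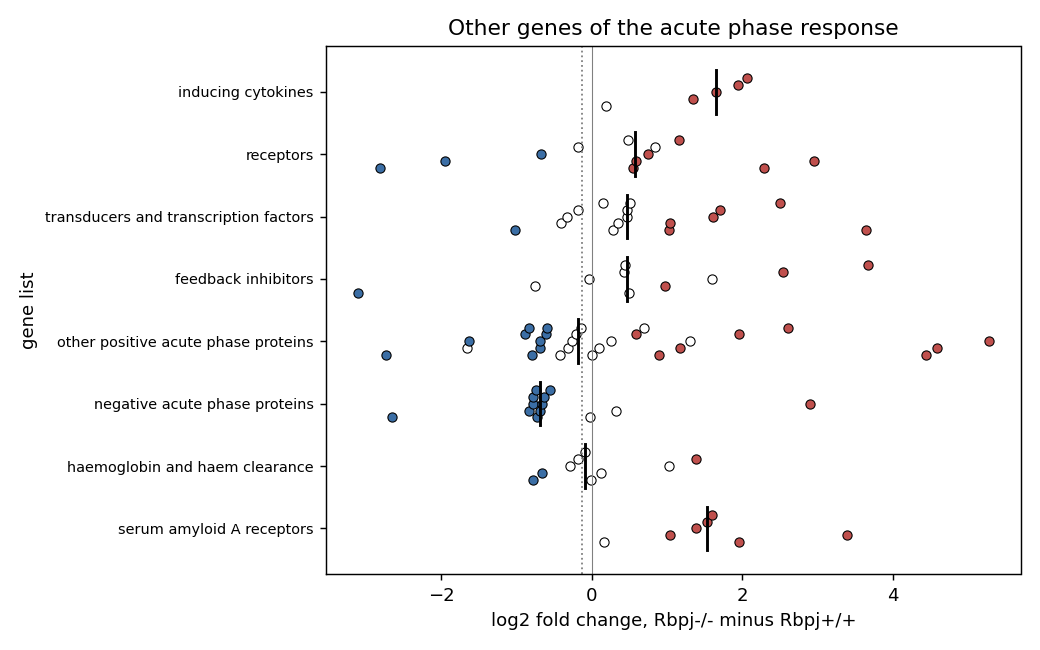
Log2 fold change (*Rbpj*-/- minus *Rbpj*+/+, after the percentile shift) of each tested gene in 8 lists of the acute phase response. Each point is 1 gene, red for called higher, blue for called lower and open for not called, the vertical bars are list medians and the dotted line is the median of all tested genes (-0.13). Of the serum amyloid A receptors 6 of 7 are higher, and of the negative acute phase proteins 10 of 13 are lower on this scale but 2 after quantile normalization. Of all tested genes 14.6% are higher and 19.5% lower on this scale, and 15.2% are lower after quantile normalization.

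Markers of 9 classes of cell were read in the same arrays, and they did not all move one way. Levels were summed over the genes of a list on the linear scale, relative to the 75th percentile of the array. The counts of calls stand beside 14.6% higher and 19.5% lower over all tested genes, or 16.6% and 15.2% after quantile normalization. For 10 hepatocyte markers, led by *Alb* and *Apoc3*, the sum ranged from 2963 to 4012 in *Rbpj*+/+ and from 1947 to 2418 in *Rbpj*-/- liver, and 6 were called lower and 0 higher (3 lower and 2 higher after quantile normalization). For 10 markers of Kupffer cells and macrophages, led by *Csf1r* and *Marco*, it ranged from 92.7 to 119 and from 305 to 388, with 8 called higher. For 9 neutrophil markers, led by *S100a9* and *S100a8*, it ranged from 6.37 to 25.5 and from 34.1 to 71.8, with 3 called higher and 1 lower. Of these 9, 5 passed the filter through *Rbpj*-/- liver alone, and of the 4 detected on all 7 arrays 2 were called higher and 1 lower. Of 8 stellate cell and fibroblast markers 6 were called higher and 0 lower, or 6 and 0 of the 7 detected on all 7 arrays. Of 7 endothelial markers 3 were called higher and 1 lower, or 2 and 1 of the 6 detected on all 7 arrays. Of 5 cholangiocyte markers 2 were called higher and 0 lower. These became 1 and 0 after quantile normalization and 2 and 1 with normexp correction. For 8 lymphocyte markers, led by *Cd4* and *Nkg7*, the sum ranged from 33.2 to 45.1 and from 12.9 to 20.7. Of these, 4 passed the filter through *Rbpj*+/+ liver alone, and of the 4 detected on all 7 arrays 3 were called lower and 0 higher. Of 6 erythroid markers 0 were called higher and 1 lower, and their sums overlapped. Of the 7 adipocyte markers, *Adipoq*, *Plin1*, *Lep*, *Cfd* and *Retn* did not pass the filter on dim probes. The sum of the other two, *Plin4* and *Cidea*, ranged from 0.787 to 1.10 and from 1.71 to 4.44. *Cidea* was well above background on no *Rbpj*+/+ array and so passed the filter through *Rbpj*-/- liver alone, and 1 of the pair was called higher after quantile normalization. The part of a changed cell composition in the levels of *Saa3*, *Lcn2*, *Il1b* and the serum amyloid A receptors, which macrophages or neutrophils also express, was not tested.

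Genes with a pattern like that of a member were found by Pearson correlation over the 7 arrays, among all other tested genes. The values are descriptions, since the 7 points share the difference between genotypes and the scaling of the arrays. *Zfp78* (0.981), *Parp14* (0.980) and *Gna12* (0.977) were most like *Saa1*. *2700097O09Rik* (0.988), *Stx11* (0.978) and *Tnip1* (0.973) were most like *Orm1*. *Pradc1* (0.984), *Nodal* (0.984) and *Zfp944* (0.974) were most like *Apcs*, and *H2-Q10* (0.997), *Kng1* (0.996) and *Exosc2* (0.994) were most like *Hp*. For *Saa3* the 3 probes most like it (0.954 to 0.975) have no gene symbol here.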

How the data were processed

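The authors deposited intensities of single spots from 1-colour arrays, extracted with Agilent Feature Extraction 10.7.3.1. They are corrected for background and spatial trend within an array and are not normalized between arrays. A series matrix with log2 values, which the authors derived from these arrays and centred per probe, served as an alternative. Its log2 fold changes lay close to those of quantile normalization (*Saa1* 2.99 and 2.98, *Hpx* 0.46 and 0.43), so it is not a separate check. Probe coordinates are those of the array design (mm9). Groups follow the genotype in the labels, and replicates were numbered in accession order.

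Control probes and spots marked as outliers were removed. The remaining spots of each probe were averaged as log2 intensities, and each array was shifted to a 75th percentile of 0. Testing required a positive and significant signal well above background on every array of 1 genotype or both, which 24566 probes met. Between 41.2% and 65.0% of probes were well above background per array, with brighter dim probes on *Rbpj*+/+ replicate 2 and *Rbpj*-/- replicate 1, and arrays of the same genotype correlated at 0.968 to 0.986 across probes. Precision is limited by the number of arrays. limma 3.58.1 (R 4.3.3) compared the genotypes, and Benjamini-Hochberg adjustment covered all tested probes. The brightest tested probe stood for its gene, and 6409 genes (34.1%) were called. If no array of a genotype was well above background, the fold is given as a bound. Single genes and paralog differences were also compared by exact permutation of all 35 splits. Current symbols came through accessions for 28325 probes, symbols for 2214 and synonyms for 174, and 24968 probes kept their array name. Promoter windows are from RefSeq (GRCm38.p6) and were aligned with Biopython 1.88. Tables were made with pandas 2.3.3 in Python 3.11.15, and figures with matplotlib 3.10.9.

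The members, gene lists, motifs and tests were chosen with earlier results of these data known. Genes named are the members, *Rbpj*, *Il6*, *Il1b*, *Stat3*, *Socs3*, *Cebpb*, *Crp*, *Lcn2*, *Serpina3n*, *Fgb*, *Alb*, *Cd163*, *Hmox1*, the 2 called genes per list that changed most, and for 5 members the 3 genes most correlated with each. Of the genes chosen by this rule, 1 is not reported here. The alternatives changed the filter (no filter, detection on all 7 arrays), the scaling (quantile normalization, percentile over probes detected everywhere, series matrix), the background (normexp, offset 50), the model (limma-trend, array weights), the threshold (0.05), the spots (marked spots kept) and the probes of a gene (mean of all). Each animal, and both arrays with bright dim probes, were also left out. Measurements other than the arrays were not analysed here.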

Additional observations from a re-analysis of the deposited data

Results flagged for a closer look

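In the 4 *Rbpj*+/+ animals, the gap between the most extreme animal and the next was compared with the range of the group by Dixon's test for 34 genes, the members and the genes named above. *Apcs* passed, with a ratio of 0.863, because *Rbpj*+/+ replicate 1 lay far above the other 3 animals. Chance gives about 5% of such groups, so 1 of 34 is close to that share.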

How the results depend on the processing

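The 4 members called higher became 2 without a filter on dim probes and 3 to 7 when an animal was left out (7 without *Rbpj*+/+ replicate 1), and stayed between 3 and 6 in the other settings. The 1 member called lower, *Hp*, became 0 without a filter, with quantile normalization, normexp correction, an adjusted p below 0.05 or the series matrix, and 0 to 1 when an animal was left out (0 without *Rbpj*+/+ replicate 3 or 4 or *Rbpj*-/- replicate 1 or 2). Over the 8 other lists, 35 genes were called higher and 26 lower, beside 14.6% and 19.5% of all tested genes. These counts became 18 and 5 without a filter, 10 were lower with quantile normalization and 9 with the series matrix, and 26 to 34 were higher and 15 to 27 lower when an animal was left out (15 without *Rbpj*-/- replicate 2). Signs turned for *Hp* (0.030 with quantile normalization and 0.050 with the series matrix), *Hpx* (0.43 and 0.46), *Fgb* (0.080 and 0.074), *Saa4* (0.064 with normexp correction, -0.67 to 0.21 without an animal), *Crp* (0.082 with normexp correction, -0.43 to 0.031 without an animal), *Il6* (-0.020 with normexp correction) and *Cd163* (-0.22 with normexp correction). Among the paralog differences, *Orm3* minus *Orm1* (2.87) and *Hpx* minus *Hp* (0.40) passed with quantile normalization, and *Saa3* minus *Saa1* ranged from -1.44 to 0.0021 without an animal. *Orm2* and *Orm3* were called under all 19 alternatives. Besides members, the calls of *Rbpj*, *Il6*, *Socs3*, *Fgb*, *Alb* and *Blvrb* ended without a filter (adjusted p from 0.108 to 0.224), as did those of *Il1a* and *Clcf1*. The cause of these changes was not tested. With 3 *Rbpj*-/- and 4 *Rbpj*+/+ animals, no exact permutation p can be below 0.0286.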
